A study of Homo sapiens with 12 samples.

Results

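Fatty acid desaturases place double bonds in fatty acyl chains, and elongases lengthen those chains at the endoplasmic reticulum. The 10 genes described here encode the stearoyl-CoA desaturases (SCD, SCD5), the front-end desaturases and their relative (FADS1, FADS2, FADS3), and the condensing enzymes of chain elongation (ELOVL1, ELOVL2, ELOVL5, ELOVL6, ELOVL7). They were taken by name from the 19677 genes listed in the count tables, and all 10 were found. The choice was made with earlier results of these data known. The RNA came from CAOV3, an established human line of high-grade serous ovarian carcinoma, labelled wild type and grown with 10% fetal bovine serum. There were 4 groups of 3 libraries each. The control received DMSO, the ascites group 10% ascites from ovarian cancer plus DMSO, the bezafibrate group the drug at 200 uM, and the combination group that ascites and that drug together. The 3 treated groups were exposed for 16 hours, whereas the control labels give no duration. Ascites fluid builds up in the peritoneal cavity of patients with ovarian cancer. Bezafibrate belongs to the fibrates, lipid-lowering drugs that activate the nuclear receptors called PPARs. DMSO is named only for the groups without the drug, so any solvent difference is part of every drug contrast. All values come from 1 cell line, and neither the number of ascites donors nor whether replicates were separate cultures is given. The p-values therefore measure only the spread between these libraries, which may be technical.

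As background, the 2 arms of this family share substrates but not tasks. SCD puts the first double bond into saturated chains and makes oleate and palmitoleate, while ELOVL6 extends palmitate and palmitoleate to the next length. FADS1 and FADS2, with ELOVL5 and ELOVL2, convert dietary linoleate and alpha-linolenate into long polyunsaturated chains such as arachidonate. Many of these genes are known targets of the sterol regulated factors SREBP-1 and SREBP-2, of LXR, and, mostly from rodent liver, of PPAR-alpha.

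Total counts per library ranged from 11831093 to 18762759. The replicate spread that edgeR fitted beyond counting error was 3.06% (common coefficient of variation). Combination replicate 3 stood apart from the other libraries on the second principal component of log2 CPM, at -9.11 against -2.79 to 5.78. Markers of the labelled cell type were mixed. The epithelial keratins were high in the control (KRT8 at 3005 CPM), but the serous carcinoma markers PAX8, WT1 and MUC16 were near 0, at 0.378, 0.124 and 0.0983 CPM. The summed level of the 8 epithelial markers ranged from 6134 to 6255 CPM in the control, 6291 to 6461 with ascites, 6352 to 6672 with bezafibrate and 6818 to 6925 in the combination. Of 7 blood-cell markers, 4 (PTPRC, CD3E, TYROBP and PPBP) were at 0 in every library. The blood-cell sum was 71.9 to 75.4 CPM in the control, 73.9 to 82.1 with ascites, 88.1 to 93.3 with bezafibrate and 91.4 to 99.1 in the combination, and CD68 made up most of it. The 7 markers of fibroblasts and mesothelium, mostly LUM, summed to 193 to 198, 187 to 194, 167 to 178 and 161 to 178 CPM in the same order. The epithelial sum was higher with the drug and also with ascites, in both states of the other treatment. Its genes differed in direction with bezafibrate against the control. Mean KRT7 (762 to 1118 CPM) and KRT19 (600 to 713) were higher, while KRT8 (3005 to 2914) and KRT18 (1784 to 1720) were lower. The blood-cell sum was higher and the fibroblast and mesothelium sum lower with the drug. The part of these sums in the results below was not tested. In bulk RNA a change in the share of a cell type and a change in RNA per cell cannot be told apart.

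SCD and ELOVL6 were the members with the largest differences after the drug, and FADS3 was among those without a called difference, so the sequences just before their start sites are shown for comparison. They are from RefSeq (GRCh38.p14), cut to the longest stretch with no exon annotated in GENCODE v29, 5′ to 3′ on the strand of the gene, with capitals marking CCAAT on either strand (ATTGG on the other).
SCD, chr10:100346983-100347123, plus strand: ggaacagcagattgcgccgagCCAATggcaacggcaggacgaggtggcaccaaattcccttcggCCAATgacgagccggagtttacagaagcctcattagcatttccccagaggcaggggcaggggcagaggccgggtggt
ELOVL6, chr4:110198677-110198841, minus strand: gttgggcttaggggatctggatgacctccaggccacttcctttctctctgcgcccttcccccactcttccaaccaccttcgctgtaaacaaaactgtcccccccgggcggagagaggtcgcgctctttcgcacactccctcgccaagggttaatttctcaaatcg
FADS3, chr11:61891546-61891795, minus strand: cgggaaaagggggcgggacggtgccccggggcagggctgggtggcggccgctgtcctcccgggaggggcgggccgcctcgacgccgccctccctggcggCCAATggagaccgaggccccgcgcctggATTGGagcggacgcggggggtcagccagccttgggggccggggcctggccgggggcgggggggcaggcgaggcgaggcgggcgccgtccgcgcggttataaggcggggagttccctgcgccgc

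The SCD stretch held CCAAT at -229 and -186 from the start site, FADS3 held it at -151 and, on the other strand, at -123, and the ELOVL6 stretch held none. These stretches stop short of the start site in SCD and ELOVL6, where annotated exons begin. Windows from 250 bases before to 50 bases after the start were matched for all 10 members (11 windows, since FADS2 has a pair of them). CCAAT was in 6 of the 11 windows and in 34.6% of all 35116 promoter windows. The GC box GGGCGG was in 9 of 11, against 45% of all windows. The E-box CACGTG was in the ELOVL5 window alone, against 7.26% of all. None of the 11 held the sterol regulatory element as spelled TCACNCCAC (1.13% of all windows), the direct repeat DR1 AGGTCANAGGTCA (0.0228%) or DR4 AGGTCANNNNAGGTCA (0.0199%). Both strands were searched, and these matches describe letters in short windows only.

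Levels in the control cells spanned the range from almost undetected to among the most abundant transcripts. To compare genes, CPM was divided by exon length in kilobases, from the basic transcript set of GENCODE v29. That annotation differs in gene versions from the tables, and the result depends on which transcripts are counted. SCD stood at 257 ± 1.59 CPM per kb (SD, n = 3), above 98.7% of the tested genes with a length. ELOVL5 followed at 57.1 ± 1.75 CPM per kb, FADS1 at 41.5 ± 0.342, ELOVL1 at 33.1 ± 0.486 and ELOVL6 at 26.7 ± 0.502. The gene coordinates in that annotation (GRCh38) are chr10:100347124-100364834 for SCD, chr6:53267398-53349179 for ELOVL5, chr1:43363397-43368074 for ELOVL1 and chr4:110045846-110199199 for ELOVL6. Below these came FADS2 at 12.6 ± 0.79 CPM per kb, FADS3 at 10.2 ± 0.0776 and ELOVL7 at 0.511 ± 0.0725. No neighbours among these 8 genes lay within 1 SD of each other with these lengths. With the exons of all GENCODE v29 transcripts, an alternative added after the data were seen, FADS1 stood at 32.1 CPM per kb, FADS2 at 5.67 and FADS3 at 3.26 (10.2 with the basic set), while SCD was at 257 with either. ELOVL6 (24.2 ± 0.456) then came just above ELOVL1 (23.55 ± 0.346), so the order of that pair depends on the lengths. The order of the other 6 was the same with both. The other members of each arm were nearly silent. SCD5, the second human stearoyl-CoA desaturase, had 11 counts over all 12 libraries, in 6 of them and never more than 3. ELOVL2, which elongates long polyunsaturated chains, had 7 counts, in 5 libraries and never more than 2. Both were removed by the filter on low counts and could not be tested, which left 8 members among the 12470 genes tested.

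Among the desaturases, SCD responded to both treatments in opposite directions. Its level was 1372, 1387 and 1372 CPM in the control, 1181, 1165 and 1192 with ascites, 1736, 1669 and 1682 with bezafibrate, and 1439, 1434 and 1502 in the combination. Ascites libraries were the lowest and bezafibrate libraries the highest, and no group overlapped another. Bezafibrate raised SCD by 0.30 on the log2 scale (SE 0.0253, edgeR adjusted p = 4.29e-12), a 1.23-fold difference. With ascites present in both groups, the drug contrast was 0.31 (SE 0.0255, edgeR adjusted p = 3.49e-12). Ascites lowered SCD by -0.22 on the log2 scale without the drug (SE 0.0255, edgeR adjusted p = 1.24e-06). With the drug present the ascites contrast was again -0.22 (SE 0.0253, edgeR adjusted p = 1.86e-06). The combination ended 0.08 above the control (log2; edgeR adjusted p = 0.0179). This last call was lost with upper-quartile scaling (adjusted p = 0.0653), in a fit of only these groups (0.0695), and without control replicate 1 (0.0555), control replicate 3 (0.0746) or combination replicate 3 (0.0724).

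FADS1, the desaturase that makes arachidonate and eicosapentaenoate, followed SCD in direction at a smaller size. Its level was 327, 332 and 327 CPM in the control, 298, 294 and 302 with ascites, 374, 354 and 349 with bezafibrate, and 318, 315 and 329 in the combination. Each treated group alone was clear of the control, while the combination overlapped it. The drug raised FADS1 by 0.13 without ascites (log2, SE 0.0309, edgeR adjusted p = 0.00198) and by 0.11 with it (SE 0.0316, edgeR adjusted p = 0.0153). The second of these calls was lost without ascites replicate 1 (adjusted p = 0.0532) or 2 (0.0729). With ascites the difference was -0.14 without the drug, which missed the threshold (95% interval -0.20 to -0.08, edgeR adjusted p = 0.0744). It was called with no filter on low counts (adjusted p = 0.0148), with DESeq2 (0.0469), in a fit of only these groups (0.00428), and without combination replicate 1 (0.0395) or 3 (0.00579). With the drug present ascites lowered FADS1 by -0.16 (log2, SE 0.0310, edgeR adjusted p = 0.0118). That call was lost in a fit of only these groups (adjusted p = 0.209), without bezafibrate replicate 1 (0.230) and without combination replicate 2 (0.0873). Against the control, the combination differed by -0.03 (log2, 95% interval -0.10 to 0.03, edgeR adjusted p = 0.531).

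FADS2, the desaturase that starts the polyunsaturated pathway, was lower with ascites and showed no called difference with the drug. Its level was 66.7, 59.0 and 61.7 CPM in the control, 56.9, 55.0 and 55.3 with ascites, 64.4, 61.8 and 60.0 with bezafibrate, and 55.5, 53.9 and 51.8 in the combination. Every library with ascites lay below every library without it. The drug contrast was -0.01 without ascites (log2, 95% interval -0.11 to 0.09) and -0.05 with it (-0.16 to 0.06), and edgeR adjusted p was 0.933 and 0.606. Ascites gave -0.17 without the drug (edgeR adjusted p = 0.535) and -0.21 with it (0.157), and neither was called. The second was called when no filter was applied (adjusted p = 0.0395). Averaged over both drug states, ascites lowered FADS2 by -0.19 (log2, SE 0.0368, edgeR adjusted p = 0.00874). Without control replicate 1 or bezafibrate replicate 1 the averaged call was lost (adjusted p = 0.0641 and 0.0549). The combination was below the control by -0.22 (SE 0.0529, edgeR adjusted p = 0.0025), a call lost without control replicate 1 (-0.16, adjusted p = 0.0507).

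FADS1 and FADS2 overlap on opposite strands of chromosome 11, at chr11:61799625-61829318 on the minus strand and chr11:61792980-61867354 on the plus strand (GENCODE v29, GRCh38). By these coordinates, over all annotated transcripts, FADS1 lies within the span of FADS2. Their exons, over all annotated transcripts, share 490 bases, 4.79% of the exonic bases of FADS1 and 4.44% of those of FADS2. Whether counting used the strand is not stated, so reads from the shared bases cannot be assigned here and both genes carry that uncertainty. FADS3, a member of the same cluster whose enzyme acts on sphingoid bases, had group means of 20.5, 20.4 and 19.4 CPM in the control, ascites and bezafibrate groups. The bezafibrate libraries (19.9, 18.2 and 20.2 CPM) lay just below those of the control (20.3, 20.4 and 20.6 CPM) without overlap. The combination libraries stood at 21.2, 17.7 and 15.1 CPM and overlapped every other group. No FADS3 contrast was called, and its averaged drug effect was -0.12 on the log2 scale (95% interval -0.25 to 0.01, edgeR adjusted p = 0.167). Without combination replicate 1, FADS3 was called lower in the combination against ascites (-0.32, adjusted p = 0.0153), in the combination against the control (-0.32, 0.0156) and in the averaged drug effect (-0.20, 0.0129).

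**Figure D1:**
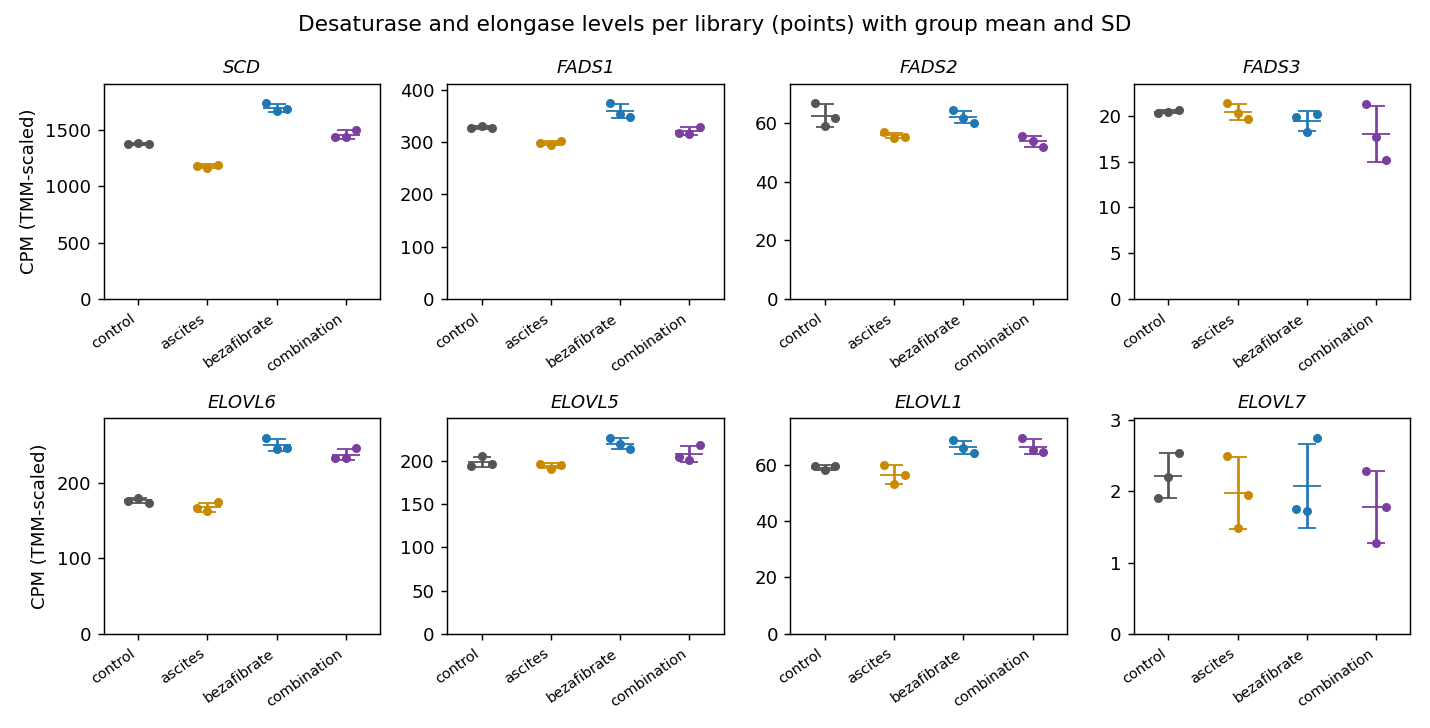
Levels of the 8 tested members in CPM (y axes from 0, a different scale in each panel) in the control, ascites, bezafibrate and combination groups. Points are single libraries, and bars are the group mean and SD (n = 3). SCD and FADS1 are lowest with ascites and highest with bezafibrate, FADS2 is lower in both ascites groups, and ELOVL6 is higher in both bezafibrate groups.

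Among the elongases, ELOVL6 had the largest difference of any member. The level was 176, 181 and 174 CPM in the control, 167, 162 and 174 with ascites, 260, 246 and 246 with bezafibrate, and 233, 233 and 246 in the combination. All 6 libraries with the drug were far above all 6 without it, and the ascites libraries overlapped the control. Bezafibrate raised ELOVL6 by 0.50 on the log2 scale, or 1.42-fold (SE 0.0353, edgeR adjusted p = 3.43e-14). With ascites present the drug contrast was also 0.50, or 1.41-fold (SE 0.0360, edgeR adjusted p = 6.99e-14), and these contrasts share no library. The combination stayed 0.42 above the control (log2, SE 0.0359, edgeR adjusted p = 5.32e-12). The ascites contrast was -0.08 in both drug states, and neither was called (edgeR adjusted p = 0.827 and 0.948). The averaged ascites effect on ELOVL6 was -0.08 (95% interval -0.13 to -0.03, edgeR adjusted p = 0.341). It was called only without combination replicate 3 (adjusted p = 0.0386).

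ELOVL5, which lengthens polyunsaturated chains between the steps of FADS2 and FADS1, was modestly higher with the drug. Its level was 195, 206 and 196 CPM in the control, 196, 191 and 196 with ascites, 227, 220 and 214 with bezafibrate, and 205, 201 and 218 in the combination. Bezafibrate libraries were clear of the control, and combination libraries overlapped both of those groups but not the ascites group. The drug raised ELOVL5 by 0.15 (log2, SE 0.0353, edgeR adjusted p = 0.00218). With ascites present the drug difference was 0.10 (95% interval 0.02 to 0.17, edgeR adjusted p = 0.0587), which missed the threshold but passed it without combination replicate 2 (0.0344). The averaged ascites effect was -0.06 (95% interval -0.11 to -0.01, edgeR adjusted p = 0.601).

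ELOVL1, which makes very long saturated and monounsaturated chains for sphingolipids, was higher with the drug in both ascites states. Its level was 59.6, 58.0 and 59.5 CPM in the control, 59.9, 53.2 and 56.4 with ascites, 68.7, 66.0 and 64.1 with bezafibrate, and 69.6, 65.3 and 64.7 in the combination. All 6 libraries with the drug were above all 6 without it. The drug raised ELOVL1 by 0.17 (log2, 95% interval 0.07 to 0.27, edgeR adjusted p = 0.0144) and, with ascites, by 0.24 (SE 0.0514, edgeR adjusted p = 0.000612). The first call was lost without control replicate 2 (adjusted p = 0.0622) or bezafibrate replicate 1 (0.0928). The combination was 0.18 above the control (edgeR adjusted p = 0.0118), which was lost without control replicate 2 (0.0507) or combination replicate 1 (0.0946). ELOVL7, another elongase of saturated chains, was expressed at 1.27 to 2.75 CPM over the 12 libraries, and every pair of groups overlapped. No ELOVL7 contrast was called. Its averaged ascites effect was -0.16 with a 95% interval of -0.53 to 0.22, which holds both 0 and the value of SCD, so a change of that size was not detectable at this level.

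**Figure D2:**
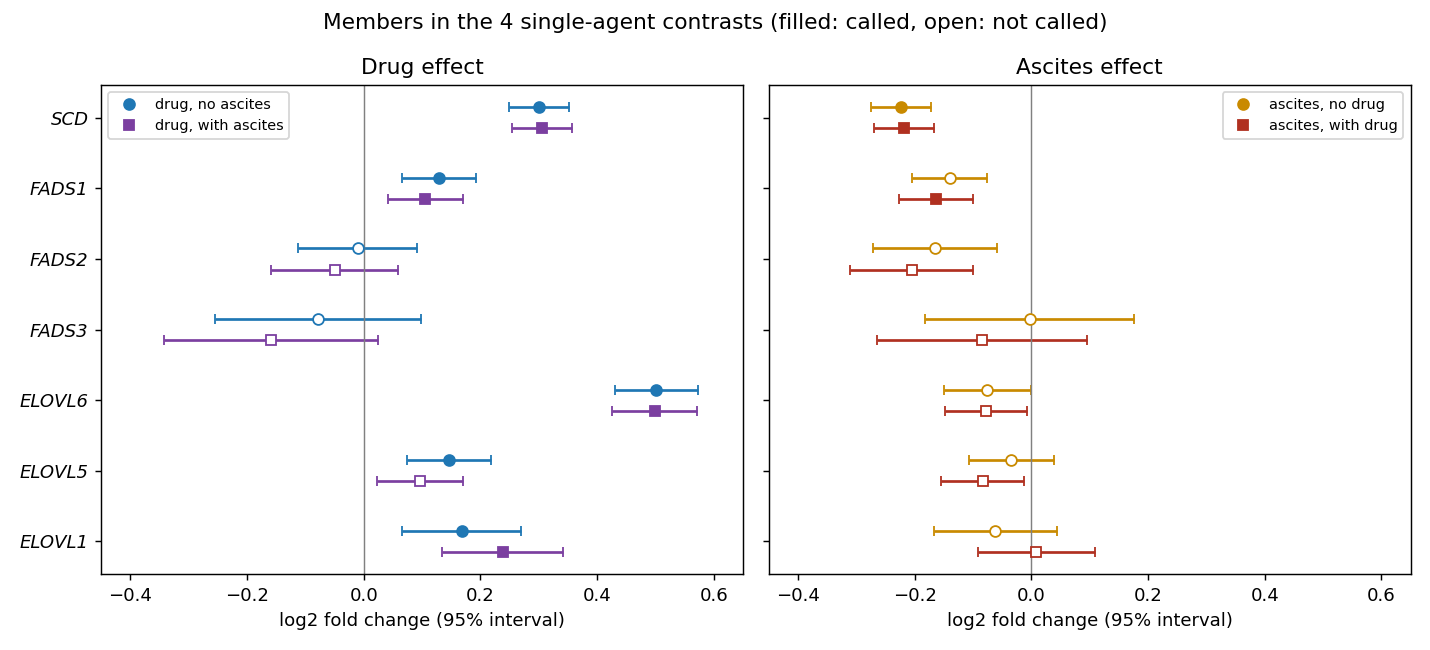
Log2 fold changes (x axes) of 7 tested members after bezafibrate (left panel, without and with ascites) and after ascites (right panel, without and with the drug). Bars are 95% intervals, filled symbols are called at an adjusted p under 0.05 and open symbols are not, and ELOVL7 is left out for its wide intervals. ELOVL6 lies near 0.50 in both drug contrasts, and SCD lies near 0.30 on the left and -0.22 on the right.

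Each count of called members is set here against the share of all tested genes called the same way. Because the members were chosen with earlier results of these data known, these shares describe them and are not a test. With bezafibrate against the control, 5 of the 8 tested members were called higher (SCD, FADS1, ELOVL1, ELOVL5 and ELOVL6), against 10.1% of all tested genes, and 0 were called lower, against 7.55%. Their median log2 fold change was 0.14, beside -0.0037 over all genes. In the combination against ascites, 4 of 8 were called higher (the same genes but ELOVL5), against 10.5% of all tested genes, 0 were called lower, against 7.29%, and the median was 0.10. With ascites against the control, 1 of 8 (SCD) was called lower, against 0.0882% of tested genes, and 0 were called higher, against 0%. Wholly separate groups were more frequent, with 3 of 8 members (SCD, FADS1 and FADS2) lower in every ascites library than in every control library, against 7.06% of all genes. In the combination against bezafibrate, 2 of 8 (SCD and FADS1) were called lower, against 0.0882% of tested genes, and 0 higher, against 0.0401%. SCD, FADS1 and FADS2 were again lower without overlap, against 4.83% of all genes. In the combination against the control, 3 of 8 (SCD, ELOVL1 and ELOVL6) were called higher, against 10.3%, and 1 (FADS2) lower, against 7.96%. At an unadjusted p under 0.05, no member was lower in either drug contrast and none was higher in either ascites contrast, and DESeq2 and voom called 0 members in those directions. The contrasts against the control share its libraries and are not independent of each other.

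Averaging over both states of the other treatment sharpened these values. The averaged drug effect called 5 of 8 members higher, against 15% of tested genes. It was 0.50 for ELOVL6 (95% interval 0.45 to 0.55), 0.30 for SCD (0.27 to 0.34), 0.20 for ELOVL1 (0.13 to 0.28), 0.12 for ELOVL5 (0.07 to 0.17) and 0.12 for FADS1 (0.07 to 0.16). Larger absolute drug effects than that of ELOVL6 were seen in 6.12% of tested genes, and 13% exceeded SCD. The averaged drug effect called 0 of 8 lower, against 13.2% of tested genes. The averaged ascites effect called 0 of 8 higher, against 0.0481%, and 3 of 8 lower, against 0.233%. All 3 were desaturases: SCD at -0.22 (95% interval -0.26 to -0.18, edgeR adjusted p = 1.33e-10), FADS2 at -0.19 (-0.26 to -0.11) and FADS1 at -0.15 (-0.20 to -0.11, edgeR adjusted p = 9.21e-05). No elongase was called there, but the 95% intervals of ELOVL6 (-0.08, -0.13 to -0.03) and ELOVL5 (-0.06, -0.11 to -0.01) lay below 0. ELOVL1 stood at -0.03 (95% interval -0.10 to 0.05), and the desaturase FADS3 at -0.04 (-0.17 to 0.08). Of the 8 tested members, 0 had an averaged ascites estimate above 0. The interaction, which asks whether the drug response differed with ascites, was called for 0 of 8 members and for 0% of tested genes with edgeR (445 of all genes and 0 of the members had an unadjusted p under 0.05, and DESeq2 called 1 gene, not a member). Its estimates were 0.01 for SCD (95% interval -0.07 to 0.08) and -0.003 for ELOVL6 (-0.10 to 0.10).

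Ratios of counts within a library do not depend on library scaling, and 3 pairs of members were compared that way. The pairs were chosen after the levels were seen, so their p-values are not independent of the differences given above. The adjustment covers only the 6 tests run, not the other pairs that could have been chosen. SCD over ELOVL6, the balance of stearoyl-CoA desaturation to palmitate elongation transcripts, was 7.78, 7.68 and 7.89 in the control and 7.07, 7.18 and 6.85 with ascites. It was 6.69, 6.80 and 6.83 with bezafibrate and 6.19, 6.15 and 6.10 in the combination. Each treatment lowered it, and the 4 groups did not overlap. Over both ascites states the drug difference was -0.20 on the log2 scale (exact permutation within strata, two-sided p = 0.005, the smallest that 400 assignments can give; adjusted over 6 tests 0.0075). Over both drug states the ascites difference was -0.14 (exact permutation p = 0.005, adjusted 0.0075). SCD and ELOVL6 were both raised by the drug, ELOVL6 by the larger factor.

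FADS1 over FADS2 was 4.91, 5.62 and 5.29 in the control, 5.23, 5.35 and 5.46 with ascites, 5.82, 5.74 and 5.81 with bezafibrate, and 5.72, 5.85 and 6.37 in the combination. All 6 libraries with the drug exceeded all 6 without it. The drug difference was 0.15 on the log2 scale (exact permutation p = 0.005, adjusted 0.0075), and the ascites difference was 0.03 (exact permutation p = 0.38), so the pair parted with the drug and no difference between them with ascites was detected. ELOVL5 over FADS2 averaged 3.20 ± 0.288 in the control, 3.49 ± 0.0435 with ascites, 3.55 ± 0.0256 with bezafibrate and 3.88 ± 0.295 in the combination (SD, n = 3). Its drug difference was 0.15 (exact permutation p = 0.005, adjusted 0.0075) and its ascites difference 0.13 (exact permutation p = 0.015, adjusted 0.018). The ascites difference in this ratio missed the threshold when any ascites or bezafibrate replicate was left out, at adjusted p from 0.054 to 0.06. In sum over the members, counts were 2226 ± 16.6 CPM in the control, 1975 ± 28.6 with ascites, 2675 ± 65.9 with bezafibrate and 2365 ± 56.8 in the combination. SCD alone supplied 61.9%, 59.7%, 63.4% and 61.7% of these counts, so the sum is mostly a reading of SCD.

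**Figure D3:**
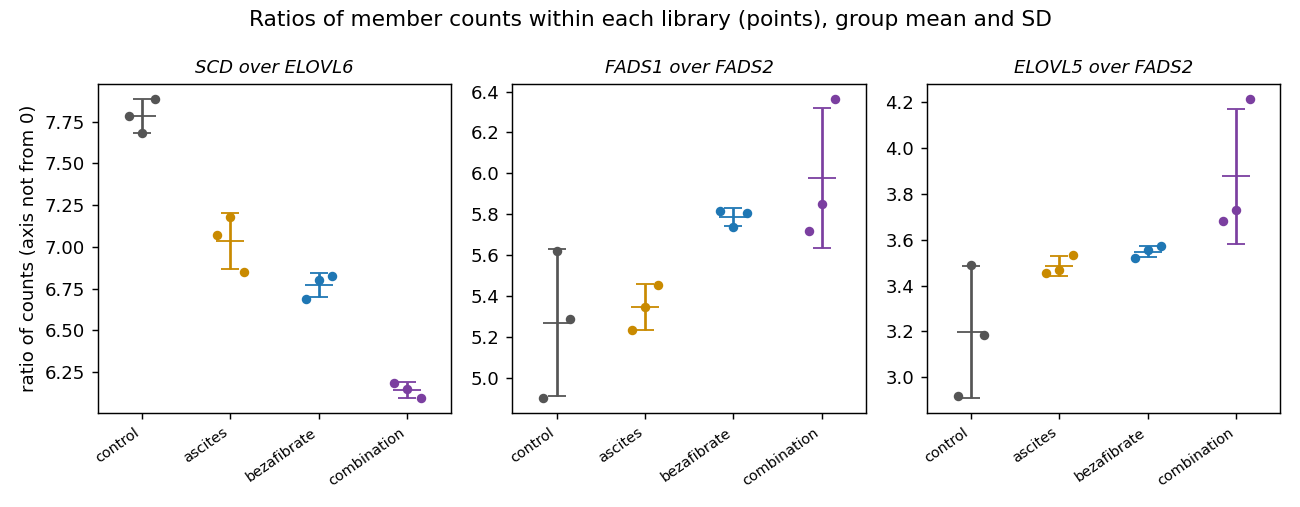
Ratios of member counts within each library (points) with group mean and SD (n = 3), on y axes that do not start at 0. SCD over ELOVL6 falls from 7.78 in the control to 6.14 in the combination, and FADS1 over FADS2 is higher in all libraries with the drug.

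The genes whose pattern over the 12 libraries lay closest to a member were found by the root mean square difference of centred log2 CPM among 9355 genes of at least 10 CPM. Among the closest to SCD, whose own range was 0.58 on the log2 scale, were LIPG (0.064) and IDI1 (0.065). LIPG encodes endothelial lipase and IDI1 an isopentenyl isomerase. Closest to FADS1 were SC5D (0.040), IDH1 (0.043) and CYP51A1 (0.047), and closest to FADS2 were DHCR7 (0.051), LSS (0.058) and SRGAP2 (0.059). SC5D encodes a sterol desaturase, IDH1 the cytosolic isocitrate dehydrogenase, DHCR7 a sterol reductase and LSS lanosterol synthase. For ELOVL6 the nearest genes were EPB41L1 (0.036), CDC42EP4 (0.038) and CAB39 (0.040), for ELOVL5 TPD52 (0.024), ACAP2 (0.027) and MAP1LC3B (0.028), and for ELOVL1 ABHD17C (0.036), RRN3 (0.046) and LTBR (0.047). IDI1 had an averaged drug effect of 0.19 and an averaged ascites effect of -0.24, against 0.30 and -0.22 for SCD. DHCR7 had 0.02 and -0.17, against -0.03 and -0.19 for FADS2. CAB39 had 0.52 and -0.06, against 0.50 and -0.08 for ELOVL6.

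The enzymes that work with the members in the same reactions are described next. Desaturases draw electrons from cytochrome b5 and its reductases, and 0 of the 7 genes of that list were called in any of the 8 contrasts with edgeR, DESeq2 or voom. The shares of all tested genes called in the averaged drug effect were 15% higher and 13.2% lower. In the averaged ascites effect they were 0.0481% and 0.233%, and in the interaction 0%, so a count of 0 there is near the share of all genes. In the averaged drug effect 1 of these 7 had an unadjusted p under 0.05, and in the averaged ascites effect 2 had. CYB5A, the microsomal cytochrome b5, stood at 15.1 ± 1.12 CPM in the control and 15.2 ± 0.893 with bezafibrate. CYB5B, the form of the mitochondrial outer membrane, stood at 232 ± 2.67 CPM in the control and 223 ± 4.90 with bezafibrate, and the reductase CYB5R3 at 154 ± 8.32 and 157 ± 7.75 (SD, n = 3). Of the 7 genes that carry out the later steps of the elongation cycle, 6 were tested. HACD1, a dehydratase of the cycle, was higher with bezafibrate by 0.30 (log2, SE 0.0830, edgeR adjusted p = 0.00751), and 0 others of the 6 were called in that contrast, where 10.1% of all tested genes were called higher and 7.55% lower. The reductases HSD17B12 and TECR stood at an averaged drug effect of 0.05 and -0.08 (edgeR adjusted p = 0.131 and 0.0605), and HACD2 was lower by -0.08 (edgeR adjusted p = 0.014). HACD3 stood at -0.06 there and was not called (edgeR adjusted p = 0.0556). In the control HACD1 was at 19.5 CPM, well below HACD2 at 139 and HACD3 at 287. Among 6 further desaturases and elongases, 3 were tested, and DEGS1, which puts the double bond into ceramide, rose by 0.13 in the averaged drug effect (edgeR adjusted p = 0.00235). PEDS1, the plasmalogen desaturase, rose by 0.16 there (edgeR adjusted p = 0.00953).

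Upstream of the members are the genes that supply malonyl-CoA and palmitate, where ACACA and FASN were lower in the averaged ascites effect. Of 9 genes listed, 7 were tested. ACACA, the acetyl-CoA carboxylase that makes malonyl-CoA, was 164 ± 1.50 CPM in the control, 145 ± 2.77 with ascites, 167 ± 4.77 with bezafibrate and 154 ± 6.82 in the combination. FASN, the palmitate synthase, was 583 ± 14.4, 548 ± 6.32, 584 ± 26.1 and 511 ± 36.2 CPM in the same order. Their averaged ascites effects were -0.15 and -0.14 on the log2 scale (edgeR adjusted p = 0.00236 and 0.0135), so 2 of 7 were called lower, against 0.233% of all tested genes. In each drug state alone, ascites called 1 of 7 lower, against 0.0882% of all tested genes. This was ACACA without the drug (-0.18, edgeR adjusted p = 0.0449) and FASN with it (-0.19, edgeR adjusted p = 0.0314). In the averaged drug effect FASN stood at -0.05 (edgeR adjusted p = 0.192) and ACACA at 0.05 (0.181), and 2 of 7 were called higher, against 15%. These were ACACB and ACSS2 (0.25 and 0.19), neither of which DESeq2 called. The list median of the drug effect was 0.05, beside -0.0047 over all tested genes and 0.12 for the members.

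Downstream, some genes that activate and esterify fatty acids had larger differences than any member. Of 15 listed and 14 tested, the averaged drug effect called 7 higher and 4 lower, against 15% and 13.2% of all tested genes. ACSL1, an acyl-CoA synthetase, went from 6.84 ± 0.790 CPM in the control to 23.2 ± 0.269 with bezafibrate, and ACSL5, another, from 16.5 ± 1.25 to 42.0 ± 1.97. LPCAT3, which places polyunsaturated chains into phospholipids, went from 91.0 ± 1.68 to 176 ± 1.97 CPM, a log2 difference of 0.95 (SE 0.0420, edgeR adjusted p = 4.86e-20). No gene of this list was called by edgeR for ascites in either drug state, where 3 of 14 had an unadjusted p under 0.05 in each, DESeq2 called 0 and voom called 1 with the drug present. Of all tested genes, edgeR called 0% higher and 0.0882% lower without the drug, and 0.0401% and 0.0882% with it. A count of 0 in this list is therefore near the share of all genes. Of the 7 genes for the peroxisomal shortening of long polyunsaturated chains, 4 were called higher in the averaged drug effect (against 15%), 0 lower (against 13.2%) and 3 were not called, with a list median of 0.48. HSD17B4 rose by 0.61 (edgeR adjusted p = 9.20e-20), above the 0.50 of ELOVL6, and is a known target of PPAR-alpha.

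Of the 16 transcriptional regulators listed, all tested, the averaged drug effect called 4 higher (against 15% of all tested genes) and 2 lower (against 13.2%, a share near that of the list). The averaged ascites effect called 2 lower, against 0.233%. INSIG1, which holds SREBPs in the endoplasmic reticulum, was lower with ascites and higher with the drug, as SCD was. Its level was 43.7 ± 2.23 CPM in the control, 33.2 ± 0.413 with ascites, 59.1 ± 1.57 with bezafibrate and 46.9 ± 1.42 in the combination. Its averaged effects were 0.47 for the drug and -0.37 for ascites (edgeR adjusted p = 1.64e-12 and 1.14e-07). SREBF2, which encodes SREBP-2, had 0.12 and -0.16 (edgeR adjusted p = 0.00836 and 0.0198). SREBF1, which encodes SREBP-1 and is named after its values were seen, moved opposite to SCD with the drug, at -0.15 in the averaged drug effect (edgeR adjusted p = 0.000209). NR1H3, which encodes LXR-alpha, rose 2.14-fold and PPARD 1.46-fold in the averaged drug effect (edgeR adjusted p = 1.11e-15 and 1.66e-07). PPARA, also outside the naming rule, was not called there (0.15, edgeR adjusted p = 0.338). PPARG had the highest control level of the PPAR genes, at 89.8 ± 1.70 CPM, against 9.84 for PPARD and 4.82 for PPARA. It was lower with the drug, at 68.8 ± 4.57 CPM with bezafibrate. With ascites it was 91.6 ± 0.610 CPM, against 70.9 ± 1.25 in the combination. The combination was below the control by -0.34 in PPARG (log2, edgeR adjusted p = 4.49e-07).

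**Figure D4:**
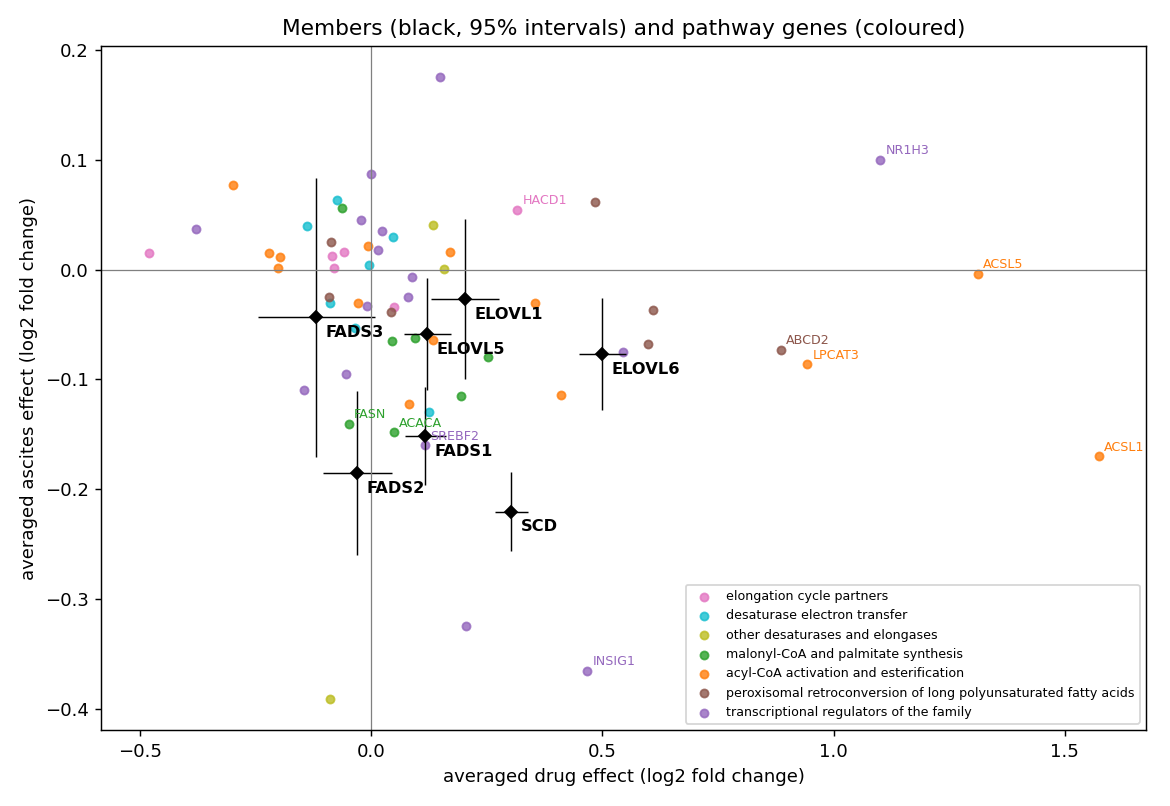
Averaged drug effect (x axis) against averaged ascites effect (y axis), both log2 fold changes, for 7 members (black, 95% intervals; ELOVL7 left out) and the tested genes of the pathway lists (coloured by list). SCD and FADS1 lie at lower right with INSIG1 and SREBF2, ELOVL6 lies to the right near an ascites effect of -0.08, and ACSL1, ACSL5, NR1H3 and LPCAT3 lie farthest right.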

How the data were processed

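For each library, the authors deposited a table of counts in whole numbers with gene identifiers and symbols. Per the submitters' processing notes, the tools were Trimmomatic 0.39, STAR 2.7.9a, RSEM 1.3.3 and DESeq2 1.28.1 with GRCh38, with no role stated. The annotation, strandedness and counting step are not given in the sources used here, so the counts may be rounded RSEM estimates.

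Groups and replicate numbers came from the labels. Replicates were checked for duplication (chi-square per degree of freedom 1.44 to 4.45, none a duplicate). Genes were filtered with filterByExpr (minimum count 10, minimum total 15), which kept 12470 of 19677 genes. Libraries were scaled by TMM, and CPM uses these scaled library sizes. Contrasts were tested with the quasi-likelihood F test of edgeR 4.0.16 (robust, 1 mean per group over 12 libraries, 8 residual degrees of freedom) in R 4.3.3, with Benjamini-Hochberg adjustment over all tested genes. A gene was called at an adjusted p under 0.05. Intervals are 95%, from the moderated degrees of freedom. Averaged effects are means of the 2 contrasts for 1 treatment. The script was tested on simulated data. Alternatives used DESeq2 1.42.0, limma 3.58.1 (voom), other scalings and filters, a replicate block and fits without each library. Leaving libraries out of the ratio tests was added after the data were seen.

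The members and lists were chosen with earlier results of these data known. Besides the members, named were up to 3 called genes per list and contrast with the largest absolute change, the 3 genes nearest each called member, and uncalled partner enzymes. Some genes that this rule names are not reported here. Lists are described by counts and medians. Of 12470 tested genes, 12440 had a GENCODE v29 length. Promoters are RefSeq's.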

Additional observations from a re-analysis of the deposited data

How the results depend on the processing

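Of 24 called member values, 17 kept their call under every alternative, among them every called SCD and ELOVL6 pairwise contrast but that of SCD in the combination against the control. The other 7 lost it in at least 1 (14 losses without 1 library, 3 elsewhere), and 7 of 40 uncalled values gained a call. For ascites against the control, called members went from 1 to 2 with no filter, with DESeq2 and with only the compared groups, and 1 to 2 without 1 library. All genes there went from 11 to 59 with no filter, 7 with voom, 33 with only the compared groups, and 3 to 24 without 1 library. For the combination against bezafibrate, members went from 2 to 1 with only the compared groups, and 1 to 2 without 1 library, while all genes went from 16 to 52 with no filter, 7 with only the compared groups, and 9 to 28 without 1 library. For the combination against the control, members went from 4 to between 2 and 4 without 1 library. Interaction calls over all genes went from 0 to 36 with no filter, 1 with DESeq2, 1 with the replicate block, 1 without robust estimation, and 0 to 3 without 1 library. The averaged ascites effect went from 35 genes to 113 with no filter and 21 to 118 without 1 library, and scaling by library totals moved its share of higher calls from 17.1% to 27.8%. Upper-quartile scaling moved the share of higher calls from 57.2% to 49% for bezafibrate against the control. In the averaged drug effect it moved that share from 53.2% to 43.3%. The shares of all genes set beside the members are those with TMM scaling. The cause of these changes was not tested.

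Signs turned in 14 member values, none called on either side. FADS3 with ascites turned to 0.00282 with library totals, 0.000243 with a minimum mean of 1 CPM, 2.91e-05 with only the compared groups, and -0.0358 to 0.0310 without 1 library, and the ELOVL7 interaction turned to 0.0194 with voom. Without 1 library, ELOVL7 ranged from -0.347 to 0.00913 (ascites), -0.344 to 0.0153 (bezafibrate), -0.381 to 0.0778 (combination against ascites), -0.420 to 0.0736 (against bezafibrate) and -0.272 to 0.222 (interaction). FADS2 with bezafibrate ranged from -0.0493 to 0.0427. In the combination against bezafibrate, FADS3 ranged from -0.241 to 0.0233 and ELOVL1 from -0.0290 to 0.0352. Interactions ranged from -0.0160 to 0.0212 for SCD, -0.0467 to 0.00571 for FADS1, -0.241 to 0.0262 for FADS3 and -0.0294 to 0.0222 for ELOVL6, and the averaged ascites effect of FADS3 from -0.121 to 0.0102.

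Same-numbered libraries of different groups showed no clear shared deviation (18 correlations from -0.267 to 0.185, 2 over 0.1). Differently numbered libraries gave 36 correlations from -0.167 to 0.317, 4 of them over 0.1. Whether the numbers mark a shared culture or batch is not given, and these correlations cannot decide it. With the replicate block, called members were 1, 5, 4, 2, 4, 0, 5 and 3 in the contrasts as ordered in the report (pairwise, interaction, averaged drug, averaged ascites), the counts without it, and all genes called were 8, 2145, 2154, 14, 2213, 1, 3453 and 31. Depth limits ELOVL7, SCD5 and ELOVL2.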
